A study of Mus musculus with 9 samples.

Results

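Liver transcripts of the IL-6, STAT3 and C/EBP pathway were followed in mice with and without a tumour in another organ. The set held 9 genes of the 12393 to which the array's annotation gives a probe set of their own: the receptor genes Il6ra, Il6st and Osmr, the kinase gene Jak2, the transcription factor genes Stat3, Cebpa, Cebpb and Cebpd, and the feedback inhibitor gene Socs3. Members were chosen by name, with earlier results of these data known. A probe set was used if the annotation gave it that gene and no other. This gave 20 probe sets, of which 19 passed the filter on dim probe sets. The exception was a dim probe set of Osmr. The brightest probe set that passed the filter stands for each gene and is called the lead.

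The study placed TK-4, a human colon cancer, in the cecal wall of male BALB/c nu/nu mice aged 6 weeks. These athymic mice lack most T cells. From day 7 after implantation they received vehicle (T-Co) or TSU68 at 400 mg/kg per day, divided over 2 oral doses (T-TSU), and livers were taken after 1 week of dosing. TSU68 is an inhibitor of VEGF, PDGF and FGF receptor tyrosine kinases. Mice without tumour received vehicle (NT-Co), and the sources used here do not state their strain, sex and age separately. No sham operation is described for them, so tumour and implantation cannot be told apart. Livers of mice given the drug without a tumour are not analysed here. Each group had 3 arrays. Samples carry the numbers of their labels as replicate names, and the labels do not state that each came from a separate animal. The p-values therefore measure the spread between these samples, which may be technical.

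In hepatocytes, IL-6 binds its receptor Il6ra and the pair engages gp130, the product of Il6st. Janus kinases attached to gp130 then phosphorylate STAT3, which enters the nucleus and induces acute phase genes together with its own inhibitor SOCS3. C/EBP-beta and C/EBP-delta are transcription factors of the acute phase response, while C/EBP-alpha maintains the metabolic genes of the resting liver.

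Promoter sequence for 8 of the 9 members came from RefSeq windows on GRCm38.p6, of which the 250 bases before the annotated start were searched on both strands. The spaced palindrome TTCNNNGAA, which STAT factors can bind, was present in 1 of the 8 members, Socs3, against 8.13% of 27025 genes with such a window. The C/EBP word TTGCNNAA was in 0 of the 8 members, against 10.8% of genes. TGACG, the core of the cyclic AMP response element, was in 2 of the 8, Cebpb and Il6ra, against 19.8% of genes. Cebpb had 3 such matches and Il6ra had 1. The windows of Socs3 (chr11:117969367-117969616, minus strand), Cebpb (chr2:167688665-167688914, plus strand) and Stat3 (chr11:100939541-100939790, minus strand) are shown. Socs3 holds the STAT match and Cebpb the most cores, while Stat3 holds none of these words, like Il6st, Osmr, Jak2 and Cebpa. Each reads 5' to 3' along its gene and ends at the base before the start. Capitals mark the TTCNNNGAA match in Socs3 and the cores in Cebpb.
Socs3: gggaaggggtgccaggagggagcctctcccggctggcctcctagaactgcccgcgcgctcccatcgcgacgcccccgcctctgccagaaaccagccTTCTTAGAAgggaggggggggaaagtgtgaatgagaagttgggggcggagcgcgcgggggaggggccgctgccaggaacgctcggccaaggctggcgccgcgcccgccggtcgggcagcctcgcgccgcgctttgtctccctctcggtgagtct
Cebpb: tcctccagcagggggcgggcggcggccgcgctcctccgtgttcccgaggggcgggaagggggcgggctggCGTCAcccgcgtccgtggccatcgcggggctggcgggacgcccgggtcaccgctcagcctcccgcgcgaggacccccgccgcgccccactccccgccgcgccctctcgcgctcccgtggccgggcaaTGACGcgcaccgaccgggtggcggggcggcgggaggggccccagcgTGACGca
Stat3: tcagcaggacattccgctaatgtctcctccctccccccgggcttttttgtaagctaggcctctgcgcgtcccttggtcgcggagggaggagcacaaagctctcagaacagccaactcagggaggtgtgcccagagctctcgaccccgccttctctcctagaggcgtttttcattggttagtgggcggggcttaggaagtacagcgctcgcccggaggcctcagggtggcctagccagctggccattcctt
The Socs3 match, TTCTTAGAA, began 154 bases before the start. The Cebpb cores began 180, 53 and 7 bases before it, and the first of them reads CGTCA on the gene's strand. A match is a run of letters in the window and does not show that a factor binds there.

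Arrays were alike in overall brightness, with median intensities of 107 to 119. T-Co replicate 13 stood apart from all other arrays on the second principal component (48.1 against at most 17.5). The ratio of the 3' to the 5' control probe sets of beta-actin ran from 2.27 to 3.14 for NT-Co, 1.88 to 2.10 for T-Co and 1.79 to 2.16 for T-TSU, so it moved with tumour. The same ratio for Gapdh overlapped between the groups, at 0.736 to 0.798 for NT-Co, 0.734 to 0.809 for T-Co and 0.707 to 0.851 for T-TSU. Hepatocyte markers fitted the labelled tissue, with 10 of 10 passing the filter, which uses the mean over all 9 arrays. Of these, 4 were called higher in T-Co than in NT-Co and 0 lower, against 3.59% and 2.78% of all lead probe sets. The summed intensity of the hepatocyte markers was 249012 to 271146 on NT-Co arrays, 301758 to 312198 on T-Co arrays and 253806 to 276273 on T-TSU arrays. Markers of Kupffer cells and macrophages summed to 7392 to 10250.0, 10094 to 15999 and 4490.2 to 10201 in the same order, with 1 of 10 tested markers higher in T-Co. For neutrophils the sums were 685 to 1111, 1004 to 2384 and 614 to 1004, with 0 of 6 tested markers called. In whole liver, fewer cells of a type and less RNA per cell cannot be told apart. Of the endothelial markers 1 of 9 was higher in T-Co, of the stellate cell markers 1 of 7 was lower, and of the B cell and biliary markers 0 of 2 each were called. Of the T and NK cell markers, 1 of 6 passed the filter, and it was not called.

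The tumour comparison, T-Co against NT-Co, asked how these transcripts differ in the liver when a tumour grows in the cecum. Stat3, Il6ra, Il6st, Cebpb and Cebpd were higher in T-Co, by 1.75-fold for Il6st to 4.61-fold for Cebpb. Jak2, Cebpa, Socs3 and Osmr were not called. Thus 5 of 9 members rose and 0 fell, at an adjusted p under 0.05 by limma over all 15838 probe sets. Over the lead probe sets of all 9225 genes tested, 3.59% were called higher and 2.78% lower. Because earlier results of these data were known when the members were chosen, these shares are a description and not a test. The median log2 difference was 1.28 over the 9 members and -0.02 over all lead probe sets. By probe set, 6 of the 19 tested were called higher, against 4.16% of all probe sets. In 6 members every T-Co array lay above every NT-Co array, a pattern met by 13% of lead probe sets. Within T-Co, replicate 9 was the lowest array for 6 of the 9 members. The beta-actin ratio was lower, and the hepatocyte sum and the medians of the macrophage and neutrophil sums were higher, in T-Co than in NT-Co, and their part in these results was not tested.

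**Figure D1:**
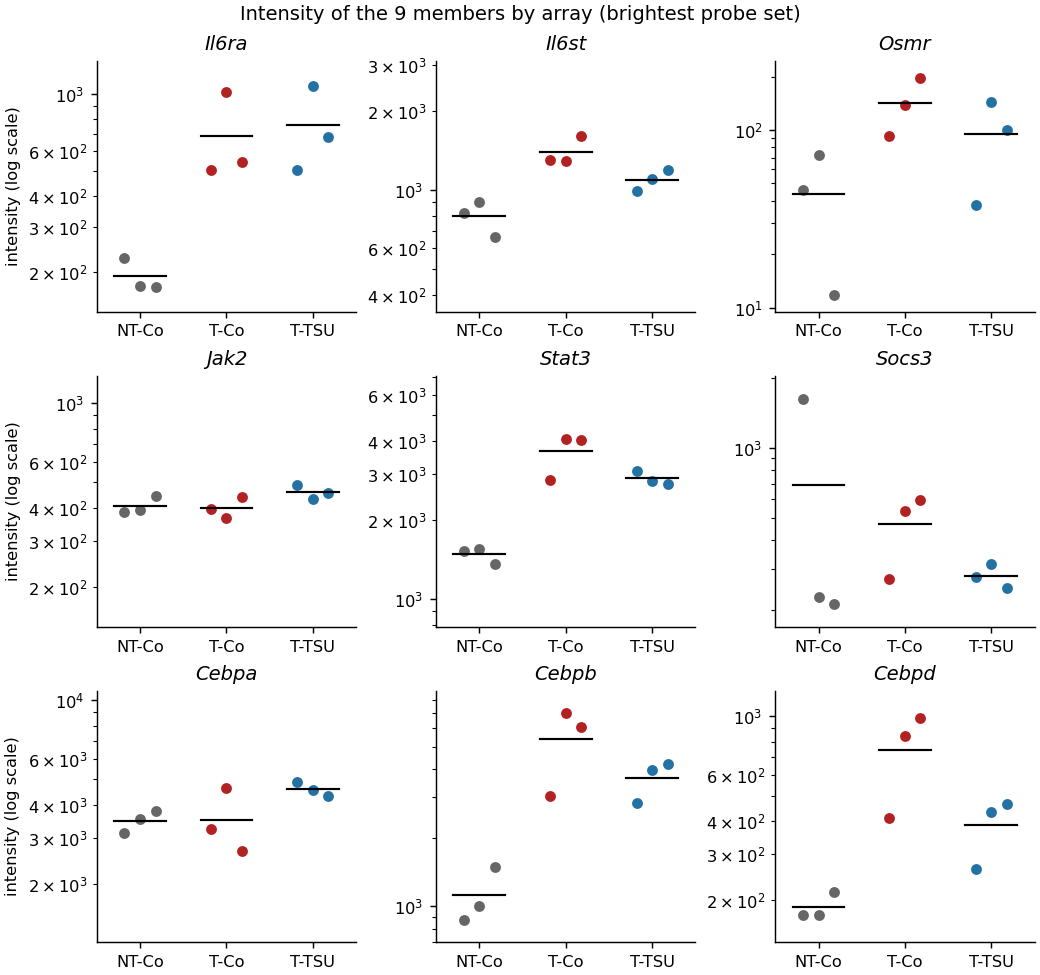
Intensity of the lead probe set of each of the 9 members on every array, on a log axis, with points for the 3 arrays of NT-Co, T-Co and T-TSU and a bar at each group's mean. For Stat3 the T-Co arrays lie between 2832 and 4068 and the highest NT-Co array is at 1555, while for Jak2 the groups overlap.

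Among the receptors, Il6ra, the ligand-binding chain for IL-6, read 228, 176 and 174 in NT-Co (replicates 8, 10 and 11). It read 503, 1018 and 541 in T-Co (replicates 9, 10 and 13) and 503, 1081 and 682 in T-TSU (replicates 2, 12 and 14). Every array with a tumour lay above every array without, and replicate 10 of T-Co and replicate 12 of T-TSU were the high ones. Il6ra was 3.31-fold higher in T-Co than in NT-Co, a log2 difference of 1.73 ± 0.30 (SE; adjusted p = 0.00598). Its second probe set moved the same way without passing the test (1.18 ± 0.41, adjusted p = 0.113).

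Il6st encodes gp130, the signalling chain shared by the IL-6 family of receptors. Its intensities were 816, 901 and 666 in NT-Co, with 1298, 1287 and 1602 on the T-Co arrays and 995, 1103 and 1192 on the T-TSU arrays. The 3 groups did not overlap, with T-TSU in between. T-Co exceeded NT-Co by 0.81 ± 0.16 on the log2 scale (1.75-fold, adjusted p = 0.00999). Without NT-Co replicate 11 the difference was 0.69 and the adjusted p 0.0544, which ended the call. The other Il6st probe sets differed by 0.80 ± 0.24 and 0.87 ± 0.25 (adjusted p = 0.0672 and 0.0576), and in both every T-Co array exceeded every NT-Co array. In them the T-TSU and T-Co arrays overlapped.

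Osmr, the receptor chain for oncostatin M, was dim. It read 45.7, 72.7 and 11.8 in NT-Co, with 92.1, 138 and 196 on the T-Co arrays and 38.0, 145 and 101 on the T-TSU arrays. The T-Co arrays all lay above the NT-Co arrays, and T-TSU spanned both. The log2 difference of 1.71 ± 0.56 had a 95% interval of 0.50 to 2.91 and an adjusted p of 0.0907, so it was not called.

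The kinase gene Jak2 was not called. Its intensities of 385, 392 and 443 in NT-Co overlapped with 395, 365 and 440.1 in T-Co. T-TSU gave 491, 432 and 456. T-Co differed from NT-Co by -0.03 ± 0.15 on the log2 scale, with a 95% interval of -0.36 to 0.31 (adjusted p = 0.948).

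Stat3, the transcription factor activated through gp130, read 1522, 1555 and 1358 in NT-Co. It read 2832, 4068 and 4041 in T-Co and 3074, 2823 and 2738 in T-TSU. Arrays with and without tumour did not overlap. The rise in T-Co was 2.43-fold, a log2 difference of 1.28 ± 0.15 (95% interval 0.96 to 1.61, adjusted p = 0.000902). Its probe sets differed from each other. The second in brightness read 1196, 1424 and 1208 in NT-Co against 1274, 1669.5 and 1703 in T-Co, which overlap, and differed by 0.27 ± 0.15 (adjusted p = 0.318). The dimmest, with a mean of 60.4 over all arrays, differed by 0.72 ± 0.56 (adjusted p = 0.506).

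**Figure D2:**
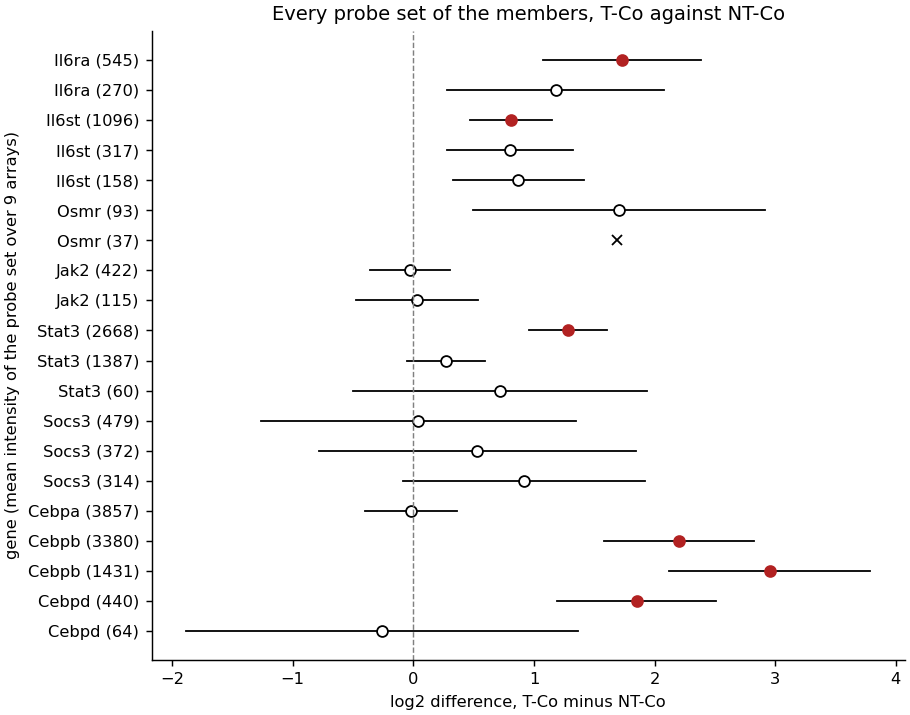
Log2 difference of T-Co from NT-Co for each probe set of the 9 members, with 95% intervals from the limma fit. Filled points were called, the cross is the Osmr probe set that was not tested, and the number beside a gene is that probe set's mean intensity. The lead of Stat3 lies at 1.28 and its second probe set at 0.27, while both Cebpb probe sets lie above 2.

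Socs3, the feedback inhibitor of gp130 signalling and a direct target of STAT3, was not called. It read 1626, 227 and 212 in NT-Co, with 272, 535 and 598 on the T-Co arrays and 277, 317 and 248 on the T-TSU arrays. A single array, NT-Co replicate 8, held the highest value of all 9, and the groups overlapped. T-Co differed from NT-Co by 0.04 ± 0.60, with a 95% interval of -1.26 to 1.34 (adjusted p = 0.980). Without NT-Co replicate 8 the difference was 0.99 (adjusted p = 0.111), and without replicate 10 or 11 it was -0.41 or -0.46. The direction of Socs3 therefore rested on single arrays. Its other probe sets showed the same high array, at 934 against 204 and 115 and at 465 against 164 and 128, and differed by 0.53 ± 0.60 and 0.91 ± 0.46 (adjusted p = 0.670 and 0.270).

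**Figure D3:**
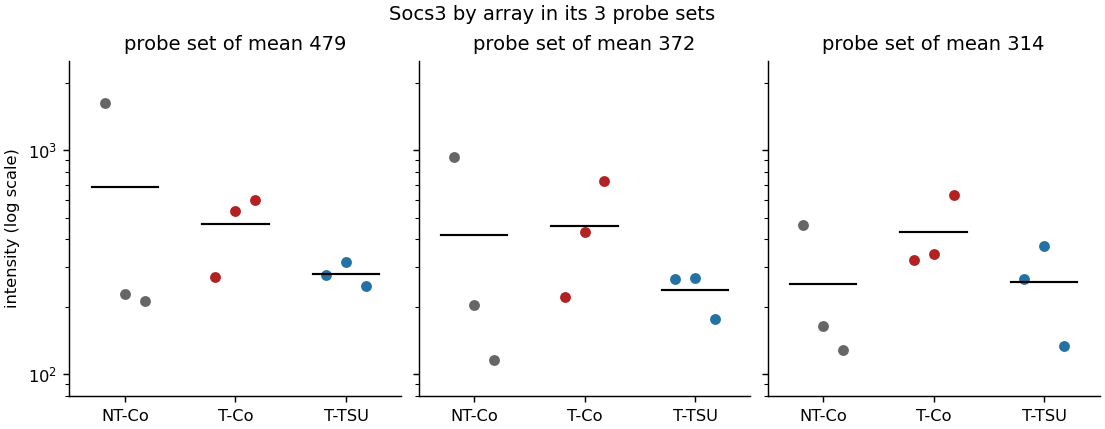
Intensity of the 3 Socs3 probe sets on each array, on a log axis, grouped as NT-Co, T-Co and T-TSU. NT-Co replicate 8 is the highest NT-Co array on every probe set, at 1626, 934 and 465.

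Of the C/EBP genes, Cebpb moved most. It encodes C/EBP-beta, the factor first described as nuclear factor for IL-6, and read 874, 1008 and 1479.7 in NT-Co. It read 3049, 6982 and 6099.7 in T-Co and 2817, 3939 and 4173 in T-TSU. Arrays with tumour all lay above those without. T-Co was 4.61-fold above NT-Co, a log2 difference of 2.20 ± 0.29 (95% interval 1.58 to 2.83, adjusted p = 0.00126). The second Cebpb probe set read 220.1, 311 and 379 in NT-Co and 1159, 3585 and 3109 in T-Co, a 7.74-fold difference (2.95 ± 0.38, adjusted p = 0.00126).

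Cebpd encodes C/EBP-delta, which IL-6 induces in liver. It read 175, 176 and 215 in NT-Co, with 412, 839.8 and 986 on the T-Co arrays and 262, 432 and 464 on the T-TSU arrays. The T-Co arrays were above all NT-Co arrays, with replicate 9 the lowest of them. The log2 difference was 1.85 ± 0.30, a 3.61-fold rise (adjusted p = 0.00416). A second, dim Cebpd probe set (13.2 to 133 in T-Co) ran the other way, at -0.26 ± 0.75 (adjusted p = 0.883).

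Cebpa, for C/EBP-alpha, read 3111, 3524 and 3786 in NT-Co, with 3228, 4635 and 2667 on the T-Co arrays and 4879.8, 4542 and 4339 on the T-TSU arrays. T-Co spread around NT-Co, and the difference was -0.02 ± 0.17 (95% interval -0.40 to 0.36, adjusted p = 0.967).

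The drug comparison, T-TSU against T-Co, asked what TSU68 changed in tumour-bearing mice. It shares the T-Co arrays with the tumour comparison, so a high or low T-Co array moves both in opposite directions. No member was called, 0 of 9 by limma after Benjamini-Hochberg adjustment, and 0 under every alternative run. Over all lead probe sets 0.0542% were called. At an unadjusted p under 0.05 there were 3 members, Cebpd, Cebpa and Il6st, against 11.5% of all lead probe sets. The median log2 difference was -0.34 over the members and 0.00069 over all leads.

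The log2 difference of Cebpd was -0.89 ± 0.30, with a 95% interval of -1.55 to -0.23 and an adjusted p of 0.333. That of Cebpa was 0.42 ± 0.17 (0.04 to 0.80, adjusted p = 0.419), with T-TSU at 4339 to 4879.8 and T-Co at 2667 to 4635. Il6st differed by -0.34 ± 0.16 (adjusted p = 0.473). By lead probe set, it was the 1 member in which the T-TSU and T-Co arrays did not overlap, a pattern that 7.58% of lead probe sets met in the lower direction. The other Il6st probe sets differed by -0.09 ± 0.24 and -0.06 ± 0.25 (adjusted p = 0.934 and 0.962), and there the groups overlapped. For Cebpb the difference was -0.50 ± 0.29 (-1.12 to 0.13) and for Stat3 -0.32 ± 0.15, with adjusted p of 0.589 and 0.481. Il6ra stood at 0.14 ± 0.30 (-0.52 to 0.79), Osmr at -0.65 ± 0.56 (-1.86 to 0.55), Socs3 at -0.65 ± 0.60 (-1.95 to 0.65) and Jak2 at 0.20 ± 0.15. The interval of Osmr includes 0 as well as a fall of the size of its tumour difference, so the test does not show that the levels were equal.

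Against mice without tumour, 3 of the 9 members were higher in the treated group, Stat3, Il6ra and Cebpb, against 2.07% of lead probe sets called higher. Stat3 was higher by 0.96 ± 0.15 on the log2 scale (adjusted p = 0.00419), Il6ra by 1.87 ± 0.30 (adjusted p = 0.00498) and Cebpb by 1.71 ± 0.29 (adjusted p = 0.00617). These are lead probe sets. The second probe set of Stat3 stood at 0.07 ± 0.15 (adjusted p = 0.884) and its dimmest at 0.63 ± 0.56 (0.655). That of Il6ra stood at 1.13 ± 0.41 (0.176), so none of these was called. The second Cebpb probe set was called, at 2.12 ± 0.38 (0.00943). Cebpd, at 0.97 ± 0.30, was not called (adjusted p = 0.110). It was called without T-Co replicate 9 (adjusted p = 0.0363) and when only these groups were fitted (0.0358). Il6st stood at 0.47 ± 0.16 (adjusted p = 0.134), and Socs3 at -0.61 ± 0.60 (adjusted p = 0.697). In 6 members all T-TSU arrays lay above all NT-Co arrays, as in 11.5% of lead probe sets. The mean of T-TSU lay between those of NT-Co and T-Co for Stat3, Il6st, Osmr, Cebpb and Cebpd. For Socs3, Il6ra, Jak2 and Cebpa it lay outside them. How many of all lead probe sets have this order was not counted, so it is given as a description only. No adjusted test separated T-TSU from T-Co for any member.

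**Figure D4:**
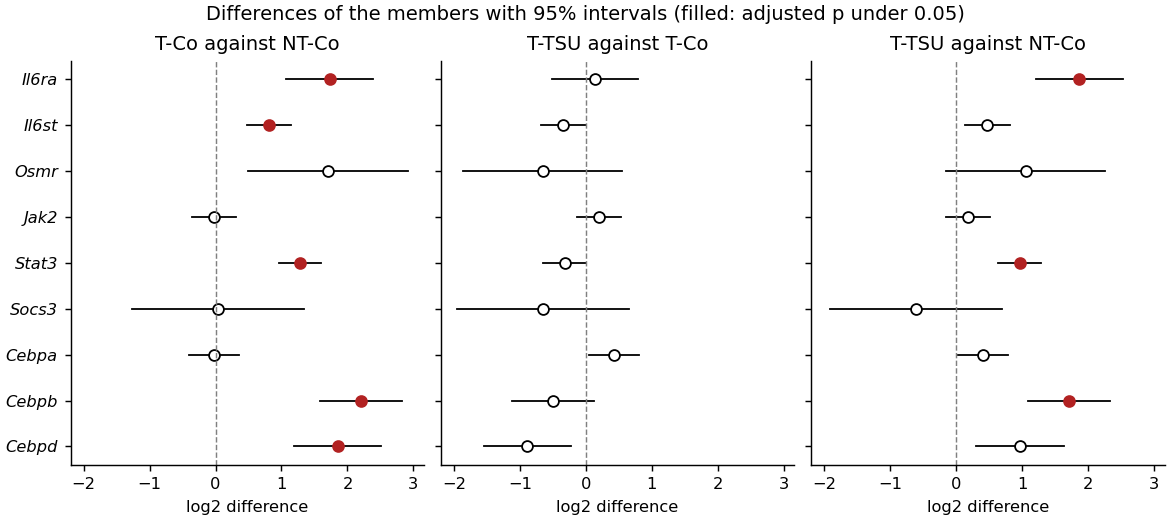
Log2 difference with its 95% interval for the lead probe set of each member in the 3 comparisons: the tumour (T-Co minus NT-Co), the drug (T-TSU minus T-Co) and the treated group (T-TSU minus NT-Co). Cebpb lies at 2.20, -0.50 and 1.71, and the intervals of Socs3 include 0 in all 3.

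The other genes of the pathway were counted by role. Their lists were also chosen with earlier results of these data known, so the counts are a description. Each count of calls with tumour stands against 3.59% of lead probe sets called higher and 2.78% lower. Of 8 ligand genes of the gp130 family, 2 passed the filter and 0 were called. These were Ctf1 and Clcf1, at -0.08 ± 0.24 and 0.07 ± 0.36 with tumour (adjusted p = 0.884 and 0.941). Il6 itself lay below the filter, at 20.6 ± 13.9 for NT-Co, 22.0 ± 26.6 for T-Co and 24.8 ± 7.19 for T-TSU (SD, n = 3), so no level of it could be compared. Of 4 receptor genes tested, 2 rose with tumour, the members Il6ra and Il6st, and 1 fell. That gene was Lifr, the receptor chain for leukaemia inhibitory factor. It read 4569, 5041 and 5764 in NT-Co, with 1966, 2404 and 751 on the T-Co arrays and 5074, 1959 and 5055 on the T-TSU arrays. T-Co lay below all NT-Co arrays, while T-TSU replicate 12 resembled T-Co and the other T-TSU arrays resembled NT-Co. The log2 difference of T-Co from NT-Co was -1.74 ± 0.41 (adjusted p = 0.0264). That call was lost without NT-Co replicate 8, 10 or 11 (adjusted p = 0.0711, 0.0651 and 0.0995) or T-Co replicate 13 (-1.23, adjusted p = 0.0539), and with no intensity trend or a robust one (0.0922 and 0.0998). A second Lifr probe set read 3496, 3085 and 2479 in NT-Co, with 1422, 983 and 706 on the T-Co arrays and 1838, 1697 and 1674 on the T-TSU arrays. There the T-TSU arrays lay together between the other groups, so the split among them was not seen. It fell with tumour by 1.58 ± 0.22 on the log2 scale (adjusted p = 0.00161), and another, dim one stood at -0.23 ± 0.53 (adjusted p = 0.850).

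Of 4 Janus kinase genes 0 were called by their lead probe sets. Jak1 stood at 0.23 ± 0.14 (adjusted p = 0.383), although another, dimmer Jak1 probe set was called at 0.94 ± 0.25 (adjusted p = 0.0446), and Tyk2 stood at -0.18 ± 0.16 (adjusted p = 0.583). Stat3 was the 1 of 5 tested STAT genes that rose. Stat5a, which relays growth hormone signals in liver, read 371, 203 and 372 in NT-Co and 146, 195 and 137 in T-Co, without overlap, and just missed the threshold at -0.92 ± 0.25 (adjusted p = 0.0503). Of 15 feedback inhibitor and phosphatase genes tested, 0 were called, and 1 had an unadjusted p under 0.05. It was Ptpn2, a phosphatase that acts on JAK and STAT proteins, which read 605, 637 and 583 in NT-Co, with 924, 863 and 933 on the T-Co arrays and 587, 469 and 711 on the T-TSU arrays. Its T-Co arrays stood above all the others, with a log2 difference from NT-Co of 0.57 ± 0.16 (adjusted p = 0.0568). A second Ptpn2 probe set differed by 0.37 ± 0.15 (adjusted p = 0.185), and there the T-TSU and T-Co arrays overlapped. Without T-TSU replicate 12 or 14 the count of this list was 1.

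Targets of the pathway mostly lay above 0 in T-Co. Of 25 acute phase genes tested, 9 rose and 0 fell, with a median log2 difference of 0.57. Of the 25, 25 lay above 0, against 48.4% of all lead probe sets. The count that rose fell to 5 when NT-Co replicate 8 was left out and to 4 when replicate 11 was. Among them were Slc39a14, a zinc importer that IL-6 induces (1.06 ± 0.13, adjusted p = 0.00109), the hepatokine Fgl1 (1.11 ± 0.16, adjusted p = 0.00248) and the metallothioneins, which bind zinc and copper, Mt2 (3.65 ± 0.59, adjusted p = 0.00397) and Mt1 (3.45 ± 0.57, adjusted p = 0.00438). In the drug comparison, which shares the T-Co arrays, 0 of the 25 were called and 0 lay above 0, against 50.1% of lead probe sets. The median was -0.54, and 21 had an unadjusted p under 0.05, against 5.83% of lead probe sets that were lower at that p. When T-TSU replicate 12 was left out, 2 of the 25 were called lower. The hepatocyte marker sum was also higher in T-Co than in both other groups without overlap. Of the 10 Kupffer cell and macrophage markers tested, 9 lay above 0 with tumour, against 48.4% of lead probe sets, with a median of 0.74. In the drug comparison 0 of the 10 lay above 0, against 50.1% of lead probe sets. Of the 10, 8 had an unadjusted p under 0.05, against 5.83% of lead probe sets that were lower at that p. Their median was -0.94 and 0 were called. The part of either marker list was not tested.

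Of 13 tested STAT3 signalling targets, 2 rose with tumour and 0 were called lower. Of the 13, 10 lay above 0, against 48.4% of all lead probe sets. Bcl3, looked at after its values were seen, ran the other way. It stood at -0.72 ± 0.20 without overlap of T-Co and NT-Co, and just missed the threshold (adjusted p = 0.0519). Without T-Co replicate 13, 1 gene of this list was called lower. The kinase gene Pim3 read 797, 933 and 985 in NT-Co, with 3268, 3747 and 2001 on the T-Co arrays and 2701, 2449.7 and 2714 on the T-TSU arrays. Arrays with tumour lay above all NT-Co arrays, treated or not. It was higher by 1.68 ± 0.20 in T-Co (adjusted p = 0.000902) and by 1.53 ± 0.20 in T-TSU (adjusted p = 0.00164). Junb, an AP-1 subunit, was higher in T-Co by 2.25 ± 0.46 (adjusted p = 0.0137), a call that was lost without the intensity trend (0.0594).

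Of 10 liver genes known as C/EBP targets, 4 rose, against 3.59% of lead probe sets called higher. Alb, Ttr, Cps1 and Tat are also on the hepatocyte marker list, and of these Cps1 and Tat rose. The count is therefore not separate from that of the hepatocyte markers. Igfbp1, an IGF-binding protein that fasting and C/EBP factors induce, read 247, 267 and 1088 in NT-Co, with 5907, 15972 and 23565 on the T-Co arrays and 1609, 4807 and 3319 on the T-TSU arrays. The 3 groups did not overlap. Its log2 difference was 4.94 ± 0.59 (adjusted p = 0.000908). Pck1, the gluconeogenic carboxykinase, was higher by 0.91 ± 0.15 (adjusted p = 0.00432). The urea cycle gene Cps1 was higher by 0.46 ± 0.09 (adjusted p = 0.00988), a call lost with no filter, with centred arrays or without the intensity trend (adjusted p = 0.0529, 0.0505 and 0.0882). Gys2 was not called for tumour (0.54 ± 0.22, adjusted p = 0.166) but was higher in T-TSU than in NT-Co (1.08 ± 0.22, adjusted p = 0.0151). That call was lost without NT-Co replicate 8, 10 or 11, without T-TSU replicate 2 or 14, and without the intensity trend (adjusted p = 0.0529 to 0.0806). Feeding and the hour of collection are not described, and a difference in them cannot be told apart from the tumour. Of 8 tested genes of other inflammatory signalling, 2 rose, the NF-kappaB inhibitor Nfkbia (0.90 ± 0.17, adjusted p = 0.00768) and the IL-1 receptor Il1r1 (1.35 ± 0.32, adjusted p = 0.0286). The Il1r1 call was lost without NT-Co replicate 8, 10 or 11 or T-Co replicate 10 or 13 (adjusted p = 0.0568 to 0.106) and with no intensity trend or a robust one (0.0925 and 0.0542). That of Nfkbia was lost without the intensity trend (0.0512).

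**Figure D5:**
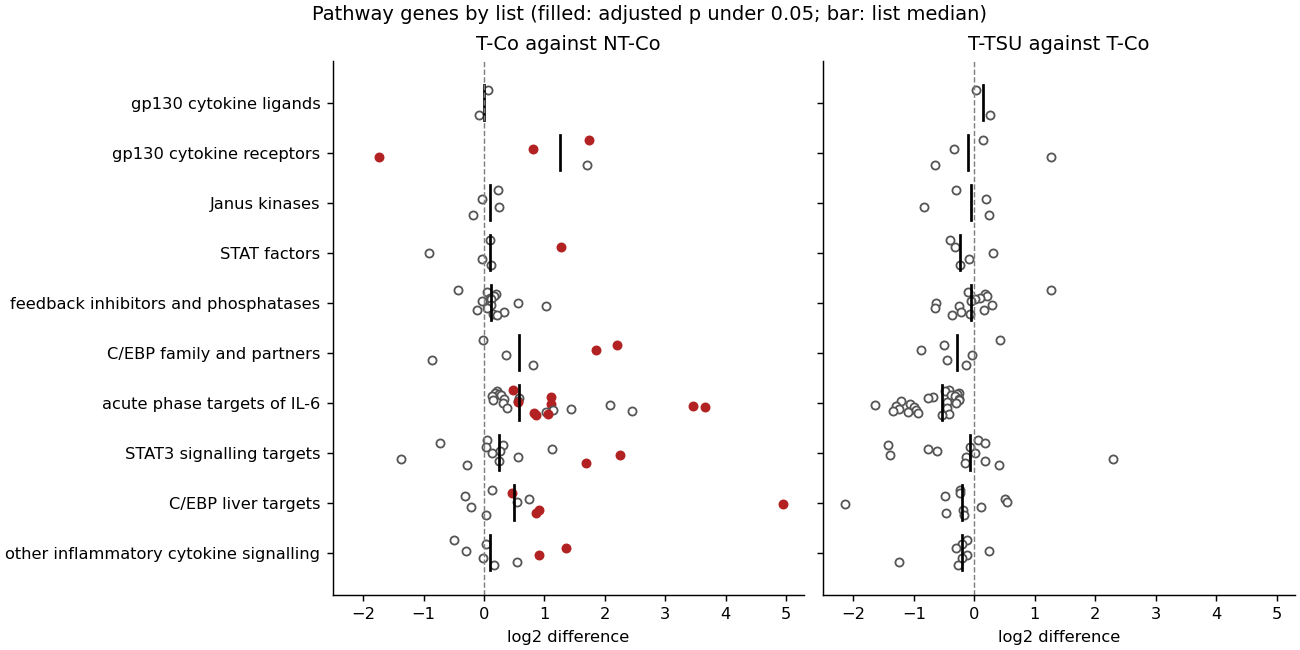
Log2 difference of T-Co from NT-Co (left) and of T-TSU from T-Co (right) for the lead probe set of every tested gene of each pathway list, with called genes filled and a bar at each list's median. The 25 acute phase genes all lie above 0 on the left, with a median of 0.57, and below 0 on the right, with a median of -0.54, and both panels use the same T-Co arrays.

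The genes whose pattern over the 9 arrays was most like that of a called member were listed by Pearson's r on the log2 scale. The arrays fall into 3 groups, so r includes the differences between groups, and it is given as a description. For Stat3 they were the kinase gene Hipk1 (r = 0.968), Trim24 (0.967) and the autophagy gene Atg14 (0.967). Those nearest to Il6ra were the mannosidase gene Man1a (0.980), the RNA demethylase gene Alkbh5 (0.972) and Lpin1 (0.969), for a phosphatidate phosphatase. Il6st was nearest to Psmd9 (0.971), Cd99 (0.966) and Chd1 (0.961). Cebpb was nearest to the ubiquitin ligase gene Itch (0.986), Pck1 (0.980) and Chd7 (0.980), and Cebpd to C9orf72 (0.972), Igfbp1 (0.967) and Aff4 (0.966). After subtraction of the group means, r was 0.979 for Cebpb with Itch and 0.875 with Pck1, but 0.497 for Stat3 with Trim24. The arrays high for Cebpb within a group were thus also high for Itch.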

How the data were processed

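Total RNA of 9 liver samples was labelled as biotin cRNA from 5 µg for 3' expression arrays, per the labels' protocols. The authors deposited linear intensities, 1 per probe set and array. The summarisation method, the scaling and the genome build were not given in the sources used here. Values were analysed as log2(intensity + 7.93), computed here from the deposited intensities with the 10th percentile of all values as pseudocount. Fold changes of dim genes are therefore understated. Of 22690 probe sets, 64 controls were left out. Another 6788, whose mean log2 value was under the 30th percentile (about 36.2 as an intensity), were not tested. That left 15838 probe sets of 9225 genes. Array medians differed by at most 0.145 (log2), and arrays were not normalized further.

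A group-means model over all 9 arrays was fitted with limma 3.58.1 in R 4.3.3 (lmFit, and eBayes with an intensity trend, 6 residual degrees of freedom). Two-sided p-values were adjusted over the whole tested table by the Benjamini-Hochberg method, and a gene was called at an adjusted p under 0.05. Intensities are per array, and log2 differences carry the SE of the model. Precision is limited by the number of arrays. The pipeline was tested on simulated data.

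The members, the pathway lists and the marker lists were chosen with earlier results of these data known. Named genes were the 9 members, up to 4 called genes of each pathway list with the smallest p (or, where under 2 were called, the 2 with the smallest unadjusted p for tumour), and the 3 genes most like each called member. Groups came from sample titles. Alternatives were other pseudocounts, filters, normalizations, variance models, probe sets and groups in the fit, and leaving out each array.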

Additional observations from a re-analysis of the deposited data

How the results depend on the processing

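Members called by lead probe set for tumour numbered 5, and 4 without NT-Co replicate 11. For the drug they numbered 0 throughout, and for T-TSU against NT-Co 3, or 4 as given for Cebpd. Other probe sets of Stat3 and Il6ra were called neither for tumour nor for T-TSU against NT-Co. Over all probe sets, the tumour count of 1036 became 475 without the intensity trend and ran from 445 to 1014 with 1 array left out. The drug count of 8 became 25 with a pseudocount of 32, 1 with quantile normalization, 14 with a robust trend, and 0 with no filter, centred arrays, no trend or only the 2 groups, and ran from 0 to 58 with 1 array left out. The T-TSU against NT-Co count of 609 became 265 without the trend and ran from 287 to 793. Of the called differences of members, 1 turned sign: Cebpd for tumour with its other, dim probe set (-0.26). The other turns were of differences not called. For tumour these were Cebpa with quantile normalization (0.011), Socs3 with centred arrays (-0.013), and the other probe set of Jak2 (0.029). For the drug it was the other Il6ra probe set (-0.055). For T-TSU against NT-Co they were other probe sets of Socs3 (0.14) and Cebpd (-0.48). With 1 array left out, Socs3 ran from -0.46 to 0.99, Jak2 from -0.097 to 0.036 and Cebpa from -0.24 to 0.16 for tumour. Il6ra ran from -0.15 to 0.46 for the drug, and Socs3 from -1.11 to 0.34 for T-TSU against NT-Co. Apart from Socs3 without NT-Co replicate 8 and the choice of probe set, the cause was not tested. No paired analysis was possible because NT-Co and T-Co share only the number 10 and the other pairs of groups share none.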

Other observations

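Socs3 was not the only cytokine-inducible inhibitor that stood high in NT-Co replicate 8. Socs2 and Cish are inhibitors that growth hormone and STAT5 induce. Socs2 was named by the rule for the pathway lists, and Cish was looked at after its values were seen. Socs2 read 569, 164 and 121 in NT-Co, with 358, 606 and 465 on the T-Co arrays and 158, 568 and 656 on the T-TSU arrays. Cish read 1022, 237 and 262 in NT-Co, with 257, 323 and 312 on the T-Co arrays and 457, 751 and 1097 on the T-TSU arrays. For both, replicate 8 was the highest NT-Co array. Every T-TSU array of Cish lay above every T-Co array, with a log2 difference of 1.27 ± 0.46 (limma adjusted p = 0.363), so it did not pass the test.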
